A study of Mus musculus with 5 samples.

Results

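The Rbp4-Aldh1a1 cells are mesenchymal cells of the mouse colon that carry transcripts of at least 2 of the 5 genes Rbp4, Aldh1a1, Tmem158, Enho and Bean1. The study profiled single cells of the colonic mesenchyme of untreated C57/BL6 mice aged 10 weeks by Drop-seq, in which each droplet holds 1 cell and a barcoded bead, and each transcript is counted once by its unique molecular identifier (UMI). There were 2 biological replicates, the first with collections 1A and 1B and the second with collections 2A, 2B and 2C. The epithelium was stripped with EDTA and DTT and the remaining tissue was digested with Collagenase XI and Dispase, and cells of other types are present among the barcodes, as described below. No group was treated or mutated, and every comparison below is between sets of cells from the same suspensions. Of 7935 deposited barcodes, 6005 had at least 300 genes and at most 10% mitochondrial UMIs, and 4436 of these passed a collagen gate of at least 2 of Col1a2, Col3a1, Col6a1, Col6a2, Mmp2 and Dcn. The Rbp4-Aldh1a1 cells are the 321 of these that pass the gate of 5 genes, and they were set against the other 4115 collagen-gated cells. A second, narrower comparison used the 612 of those others with at least 2 of F3, Plau, Tnc, Col6a5 and Bcr, called F3-Plau cells.

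The 5 gate genes were leading genes of a cluster in an earlier analysis of these cells, so their own levels, and those of the 6 collagen-gate genes, are given as a description with no test. Genes outside both gates were tested, but they come from the cells that gave the gate, so their p-values are smaller than in cells that had no part in choosing it. The labels do not say whether the biological replicates are single mice or pools, and p-values measure the spread between these 2 only.

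Fibroblasts of the intestinal wall differ by their distance from the epithelium. Those that lie directly under it, called telocytes or subepithelial myofibroblasts, are known in mouse for high PDGFRA, for the transcription factor FOXL1 and for secreted Wnt and bone morphogenetic protein (BMP) ligands, through which they act on the epithelial cells above them. BMP ligands promote differentiation near the colonic surface, and fibroblasts deeper in the wall secrete BMP antagonists such as gremlin 1 that keep the signal low around the crypt base. Rbp4 encodes the carrier of retinol in plasma, and Aldh1a1 a retinaldehyde dehydrogenase that makes retinoic acid. Enho encodes the peptide adropin, Tmem158 a membrane protein induced by RAS signalling, and Bean1 a membrane protein that binds the ubiquitin ligase NEDD4. Sox6 encodes a transcription factor of the SOX family and was named with the gate genes as a marker but was not part of the gate.

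On mm10 in the GENCODE M21 annotation, Rbp4 lies at chr19:38116629-38125281 on the minus strand and Aldh1a1 at chr19:20492715-20643465 on the plus strand. Tmem158 lies at chr9:123259053-123260764, Enho at chr4:41638144-41640324, Bean1 at chr8:104170442-104219122 and Sox6 at chr7:115470872-116038796. Exons of Enho overlap those of Dnaic1 on the opposite strand, and those of Bean1 overlap Gm45892, and the use of strand in counting is not given in the sources used here. The promoters of the genes that name the cells are shown because these are the genes most often found together in 1 cell. Each runs 5′ to 3′ from 250 bases before to 50 after a RefSeq start on GRCm38.p6, at chr19:38124762-38125061 for Rbp4 and chr19:20601718-20602017 for Aldh1a1. RefSeq lists 2 starts for each gene, and 1 of them is shown. Capitals mark 6 motifs searched on either strand, with no overlap between the matches shown: the TATA box TATAAA, the box CCAAT, the GC box GGGCGG, the forkhead core TGTTTAC, the SOX core AACAAT and the nuclear receptor half-site AGGTCA.
Rbp4: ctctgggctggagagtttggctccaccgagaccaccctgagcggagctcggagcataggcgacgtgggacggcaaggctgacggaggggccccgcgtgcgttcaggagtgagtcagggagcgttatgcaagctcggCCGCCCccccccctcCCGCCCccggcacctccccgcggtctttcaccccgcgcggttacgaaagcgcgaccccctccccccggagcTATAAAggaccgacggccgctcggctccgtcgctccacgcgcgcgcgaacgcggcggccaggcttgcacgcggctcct
Aldh1a1: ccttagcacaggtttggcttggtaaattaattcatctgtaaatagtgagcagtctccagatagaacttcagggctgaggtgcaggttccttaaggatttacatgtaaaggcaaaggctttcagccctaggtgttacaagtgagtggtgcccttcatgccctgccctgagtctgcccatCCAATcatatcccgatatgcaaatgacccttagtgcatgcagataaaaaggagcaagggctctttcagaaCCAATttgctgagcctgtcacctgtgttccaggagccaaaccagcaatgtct
The Rbp4 promoter holds TATAAA 28 bases before the start and GGGCGG at 2 places on the reverse strand, and 72% of its bases are G or C. The Aldh1a1 promoter holds CCAAT at 2 places, 72 and 2 bases before the start, and 47% of its bases are G or C. Of 32851 promoters of that length, 13.6% hold TATAAA, 35.7% GGGCGG, 37.4% CCAAT and 3.65% TGTTTAC, while 10.7% hold AACAAT and 16.3% AGGTCA. The other listed Rbp4 start has CCAAT and TGTTTAC on the reverse strand, and the other Aldh1a1 start has none of the letters searched. These matches describe letters only. The table has no entry for Tmem158 or Enho.

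Rbp4 was the gate gene most often found, with a UMI in 193 of the 321 cells (60.1%), ahead of Aldh1a1 in 170, Tmem158 in 157, Enho in 137 and Bean1 in 74. Rbp4 with Aldh1a1 was the commonest pair, in 83 cells. The cells were chosen mostly at the threshold: 247 had exactly 2 gate genes, 61 had 3, 11 had 4 and 2 had all 5, and just outside it 944 collagen-gated cells had 1 gate gene and 3171 had none. In UMIs per 1000000 UMIs of the set (CPM), Rbp4 was at 420, 242, 548, 658 and 666 in the Rbp4-Aldh1a1 cells of collections 1A, 1B, 2A, 2B and 2C. It was at 58.5, 42.2, 68.2, 55.1 and 102 in the other collagen-gated cells of the same collections. Aldh1a1 was at 438, 409, 194, 260 and 416 CPM in Rbp4-Aldh1a1 cells, against 37.4, 28.9, 40.0, 32.5 and 27.9 CPM in the others. These gaps are fixed by the gate. When each gate gene was left out and cells were chosen by the other 4, its mean CPM was 2.78 times as high in the chosen cells as in the rest for Rbp4, 3.31 for Aldh1a1, 4.02 for Tmem158, 3.21 for Enho and 4.86 for Bean1. The 5 genes were picked together from these cells, so these ratios are a description and not independent evidence. The rest also holds cells of other types, such as leukocytes and endothelial cells. Leukocyte-marker cells that failed the collagen gate gave the background of free RNA: 1.35% of them had an Rbp4 UMI at a median of 1373 UMIs a cell, against 7.92% of the other collagen-gated cells at a median of 1403. By biological replicate the leukocyte-marker share was 0.667% of 300 cells in the first and 2.76% of 145 cells in the second, so each rests on few cells. None of the 445 had 2 gate genes, which allows a share of up to 0.674%.

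The label of telocyte-like fibroblasts held for a part of the cells. All collagen-gated cells were clustered without the 5 gate genes, which gave 14 clusters, and 176 of the 321 cells (54.8%) fell in cluster 2, a cluster of 644 cells led by Nrg1, Slco4a1, Il1rl1, Col4a5, Fgf9, Emid1, Col6a4 and Plau. Another 74 fell in cluster 1, the largest, led by Tnfsf13b, Edil3, Osr1 and Ctgf, a further 29 in cluster 4, led by the epithelial genes Pyy, Spink4 and Muc2, and 25 in cluster 6, led by Hhip and the smooth muscle genes Actg2, Lmod1 and Cnn1. The clusters were made from the genes described here, so their levels carry no test. Muc2 had no UMI in the 29 Rbp4-Aldh1a1 cells of cluster 4. Adamdec1, a gene of lamina propria fibroblasts, was at 6120 CPM in them, against 4186, 5822 and 2364 CPM in those of clusters 2, 1 and 6. Sox6 was at 175 CPM in the Rbp4-Aldh1a1 cells of cluster 2, had no UMI in those of clusters 1 and 4, and was at 18.0 CPM in those of cluster 6. Pdgfra was at 613 CPM in the Rbp4-Aldh1a1 cells of cluster 2, against 278, 264 and 18.0 CPM in those of clusters 1, 4 and 6. Procr, the endothelial protein C receptor, was at 886 CPM in those of cluster 2 and at 67.5, 132 and 90.2 CPM in those of clusters 1, 4 and 6. Sox6 and Procr were thus high in the Rbp4-Aldh1a1 cells of cluster 2 and low or absent in those of the other 3, and the cells are called here by their gate genes. Sox6 is not particular to fibroblasts: it was at 101 CPM in the other collagen-gated cells of cluster 8, among whose leading genes is the glial gene Gfap.

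Within cluster 2 the Rbp4-Aldh1a1 cells stood apart from their neighbours in a few genes. Nrg1, which encodes the ErbB ligand neuregulin 1, was at 283 CPM in the 176 Rbp4-Aldh1a1 cells and at 901 CPM in the other 468 cells of the cluster. Plau, which encodes urokinase, was at 293 and 1072 CPM, F3, which encodes tissue factor, at 492 and 719 CPM, and Ereg, which encodes epiregulin, at 741 and 1409 CPM in the same order. Sox6 ran the other way, at 175 CPM in the Rbp4-Aldh1a1 cells and 94.9 CPM in the other cells of the cluster. Pdgfra, Wnt5a and Bmp7 were close: Pdgfra was at 613 and 579 CPM, Wnt5a at 249 and 221 CPM and Bmp7 at 168 and 154 CPM. Bmp5 was high in both, at 802 and 644 CPM, as were Procr at 886 and 686 CPM and Emid1 at 603 and 471 CPM. Col4a5 was at 431 and 317 CPM, Fgf9 at 246 and 201 CPM and Ednrb at 559 and 646 CPM. Grem1 was low in both, at 3.37 and 9.33 CPM. High levels of these genes, and low Grem1, were thus shared by the other cells of cluster 2.

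**Figure D1:**
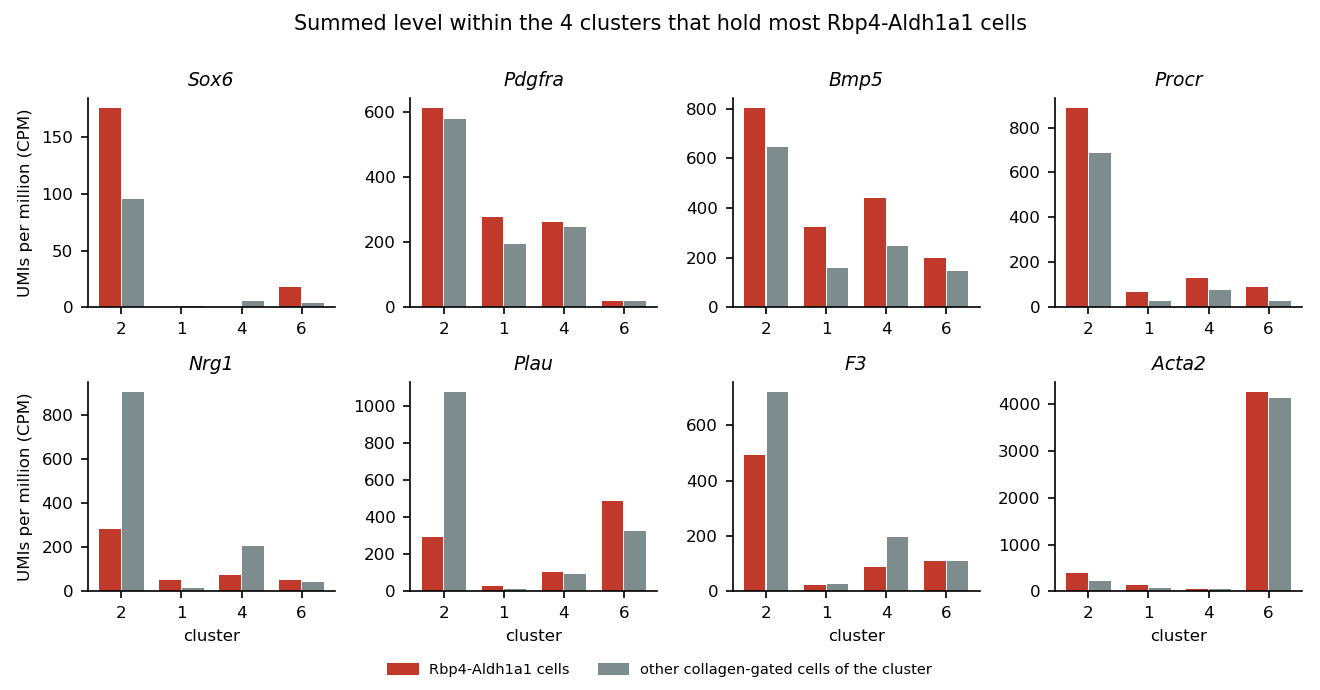
Level of 8 genes (y axis, CPM) in the Rbp4-Aldh1a1 cells (red) and the other collagen-gated cells (grey) of clusters 2, 1, 4 and 6, which hold 176, 74, 29 and 25 of the 321 Rbp4-Aldh1a1 cells. Each bar is 1 summed value with no error. Sox6 and Procr are high in cluster 2, where Nrg1 and Plau are lower in the Rbp4-Aldh1a1 cells, and Acta2 is high in cluster 6 in both sets.

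The cells also differed by which gate gene they carried. The splits below are not independent of each other. A cell without the gate gene in question must carry at least 2 of the others to be in the set. Of the 193 cells with an Rbp4 UMI, 83 also had an Aldh1a1 UMI. The part of the gate in the differences below was not tested. The 193 cells with an Rbp4 UMI had Acta2, smooth muscle actin, at 814 CPM, against 204 CPM in the 128 without one, and Myh11, smooth muscle myosin, at 645 and 125 CPM in the same order. For Aldh1a1 the order was reversed, with Acta2 at 326 CPM in the 170 cells with an Aldh1a1 UMI and 840 CPM in the 151 without. Both gaps lay mostly in the 25 cells of cluster 6, of which 24 had an Rbp4 UMI and 3 an Aldh1a1 UMI. Without that cluster, a split made after seeing the data, Acta2 was at 274 CPM in the 169 cells with an Rbp4 UMI and 197 CPM in the 127 without, and at 234 CPM in the 167 cells with an Aldh1a1 UMI and 251 CPM in the 129 without. Myh11 was then at 146 CPM with Rbp4 and 118 CPM without. Procr was higher with either, at 556 CPM with Rbp4 and 294 CPM without, and at 561 CPM with Aldh1a1 and 344 CPM without. Cells with a Bean1 UMI had Sox6 at 135 CPM, against 74.5 CPM in those without, and Fgf9 at 234 and 82.5 CPM.

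The Rbp4-Aldh1a1 cells made up 6.42%, 5.37%, 7.29%, 8.36% and 9.69% of the collagen-gated cells of collections 1A, 1B, 2A, 2B and 2C. By biological replicate the share was 5.94% in the first (126 of 2120 cells, exact 95% binomial interval 4.97 to 7.04) and 8.42% in the second (195 of 2316, interval 7.32 to 9.63). The intervals cover counting error only, and with 2 replicates the mean share was 7.18% ± 1.75 (SD, n = 2). The gap went with Rbp4 itself, which had a UMI in 8.87% of collagen-gated cells of the first replicate and 14.3% of the second. The background share in leukocyte-marker cells was also higher in the second, on the few cells given above. Collection 2C, with the largest share of Rbp4-Aldh1a1 cells, had no Rbp4 UMI in its 36 leukocyte-marker cells. That is too few cells to measure a share as low as the 1.35% of all leukocyte-marker cells. In all retained cells without the collagen gate, 1.19% had an Rbp4 UMI in the first replicate and 1.39% in the second. The part of the background in the gap was not tested. With Rbp4 left out of the gate, 4.15% of cells in the first replicate and 4.23% in the second had at least 2 of the other 4 genes. With every cell thinned to 800 UMIs, and the 571 and 634 shallower cells of the first and second replicate left out, the share was 2.71% and 4.35%, a mean of 3.53% ± 1.16 (SD, n = 2). The share thus differed with the depth at which cells were compared.

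The depth of the sets differed, and the F3-Plau cells were the deepest, with a median of 1912 UMIs and 957.5 genes per cell. The Rbp4-Aldh1a1 cells held 659509 UMIs, with a median of 1642 UMIs and 883 genes per cell, and the other collagen-gated cells 7423311 UMIs, with a median of 1403 UMIs and 782 genes. The 5 collections held 1636550 to 3345732 UMIs each. One UMI is worth 1.52 CPM in the Rbp4-Aldh1a1 cells as a whole and 6 to 9.30 CPM in those of 1 collection, so a level under about 10 CPM rests on few molecules. In all, 10 barcodes occurred in 2 libraries, 7 of them in 2A and 2B, and none of these was an Rbp4-Aldh1a1 cell.

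Set against the other collagen-gated cells, the Rbp4-Aldh1a1 cells had higher Sox6, BMP ligands, Fgf9 and Col4a5, a collagen IV chain gene, and lower Grem1 and adventitial fibroblast genes. UMIs were summed per biological replicate and set, and tested with edgeR's quasi-likelihood F test with the replicate as a block and Benjamini-Hochberg adjustment over all genes tested. Of 11125 genes tested, 254 (2.28%) were higher and 414 (3.72%) were lower at an adjusted p under 0.05. Those shares are the background for the counts below that come from this fit, and other fits are given with their own shares. The fit has 4 sums and 1 residual degree of freedom, and DESeq2 on the same sums called 94 genes higher (0.845%) and 129 lower (1.16%). The other collagen-gated cells include leukocytes and endothelial cells that pass the collagen gate. An alternative chosen after seeing this left out cells with at least 2 endothelial, immune, glial, neuronal or epithelial markers from both sets. It called 94 genes higher (1.03%) and 125 lower (1.37%), of which 85 and 75 were also called with those cells in.

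Sox6 was the gene with the largest rise by the naming rule, that is among called genes with at least 10 UMIs in each replicate and the same direction in all 5 collections. It was at 72.0, 74.4, 80.2, 121 and 108 CPM in the Rbp4-Aldh1a1 cells of collections 1A, 1B, 2A, 2B and 2C, against 11.3, 12.8, 14.9, 16.3 and 22.1 CPM in the other cells. The lowest Rbp4-Aldh1a1 value was above the highest value of the others. The mean was 87.1 ± 20 CPM in Rbp4-Aldh1a1 cells and 14.9 ± 4.05 CPM in the others (SD, n = 2 each), with a log2 fold change of 2.54 ± 0.31 (SE) and an adjusted p of 7.2e-05 by edgeR. Even so, Sox6 was found in 43 of the 321 cells (13.4%), against 2.19% of the others. Of a list of 15 telocyte genes, 14 were tested and 10 rose: Sox6, Bmp3, Bmp5, Bmp7, Procr, Wnt5a, Ednrb, Agt, Pdgfra and F3. One, Cd34, was lower. DESeq2 called 9 higher and 1 lower, and so did edgeR without cells of other classes. The list was partly drawn from what was known of these cells, so its count is not independent evidence.

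Pdgfra, the receptor for platelet-derived growth factor, was at 378, 400, 274, 476 and 374 CPM in the Rbp4-Aldh1a1 cells of the 5 collections in that order, against 176, 165, 182, 152 and 167 CPM in the others. The ranges did not overlap, and the log2 fold change was 1.15 ± 0.17 (edgeR adjusted p 0.00054). Foxl1, the transcription factor most used to mark telocytes, had 15 UMIs in 14 of the Rbp4-Aldh1a1 cells, with 30, 9.30, 26.7, 17.3 and 25.0 CPM, against 6.67, 5.88, 6.28, 7.23 and 3.28 CPM in the others. Its log2 fold change of 1.93 ± 0.57 did not pass the test (edgeR adjusted p 0.057). By cluster, Foxl1 was at 37.0 CPM in the Rbp4-Aldh1a1 cells of cluster 2 and 72.2 CPM in those of cluster 6, the smooth muscle cluster. It had no UMI in those of clusters 1 and 4, and all these levels rest on few UMIs. Cd34, a marker of deeper stromal fibroblasts, averaged 130 CPM in Rbp4-Aldh1a1 cells and 271 CPM in the others, a log2 fold change of -1.06 (edgeR adjusted p 0.0043).

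**Figure D2:**
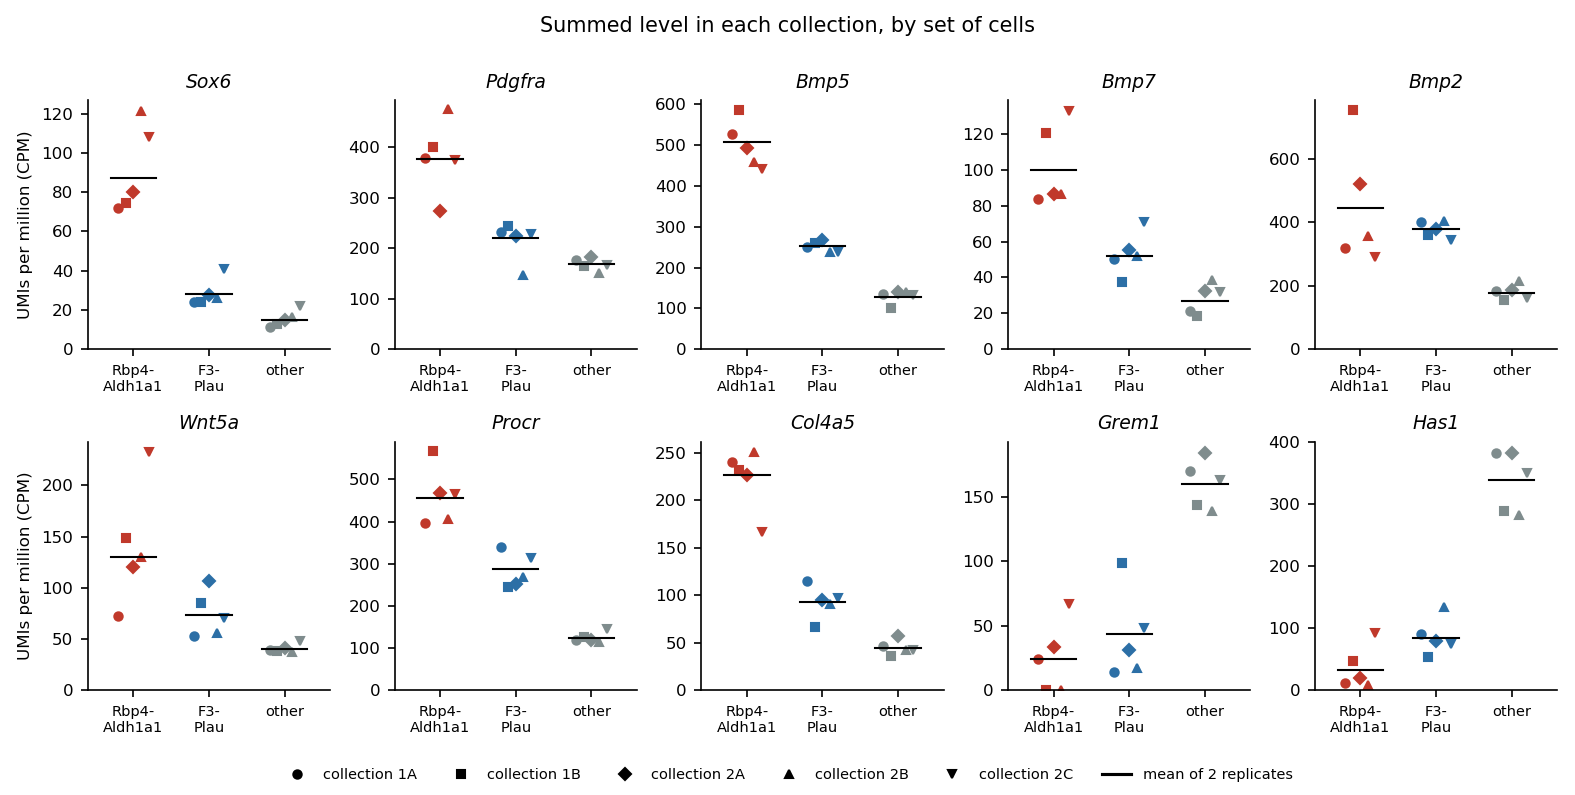
Level of 10 genes in each of the 5 collections (y axis, CPM) in Rbp4-Aldh1a1 cells, F3-Plau cells and the other collagen-gated cells, which include the F3-Plau cells; lines are means of 2 biological replicates. Sox6, Bmp5, Procr and Col4a5 are higher in the Rbp4-Aldh1a1 cells than in the others in all 5 collections, and Grem1 and Has1 lower.

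Most of the tested BMP ligands rose. Of 15 ligand genes, 7 were tested and 5 were higher in the Rbp4-Aldh1a1 cells (Bmp3, Bmp5, Bmp7, Bmp2 and Bmp4) with none lower, against the background of 2.28% of genes higher. DESeq2 called 4 higher, and edgeR without cells of other classes called 5. Bmp5 was at 528, 586, 494, 459 and 441 CPM in the Rbp4-Aldh1a1 cells of the 5 collections, against 135, 99.9, 141, 141 and 133 CPM in the others, a log2 fold change of 1.98 ± 0.18 (edgeR adjusted p 3.2e-06). It had a UMI in 179 of the 321 cells, and every Rbp4-Aldh1a1 value was above 3 times the highest value of the others. Bmp7 was at 84.0, 121, 86.8, 86.6 and 133 CPM, against 21.0, 18.7, 32.2, 38.8 and 32.0 CPM in the others, a log2 fold change of 1.88 ± 0.29 (edgeR adjusted p 0.00072). Bmp2 differed between collections, with 318, 753, 521, 355 and 291 CPM in Rbp4-Aldh1a1 cells, against 182, 154, 185, 215 and 161 CPM in the others. Its lowest value was still above the others' highest, and the log2 fold change was 1.31 ± 0.17 (edgeR adjusted p 0.00018). Bmp4 averaged 915 ± 97.0 CPM in Rbp4-Aldh1a1 cells and 507 ± 125 CPM in the others (SD, n = 2 each), a log2 fold change of 0.86. Bmp3 rested on 16 UMIs, and its ranges overlapped between the sets.

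Among the BMP antagonists the members moved in both directions. Of 13 genes 10 were tested, 3 were higher (Nbl1, Fst and Twsg1) and 1 was lower (Grem1). Grem1, which encodes gremlin 1, was at 24.0, 0, 33.4, 0 and 66.6 CPM in the Rbp4-Aldh1a1 cells of the 5 collections, against 170, 143, 184, 139 and 163 CPM in the others. That is 17 UMIs in all 321 cells, and a log2 fold change of -2.66 ± 0.31 (edgeR adjusted p 6.1e-05), with no overlap between the sets. Nbl1, which encodes the BMP-binding protein DAN, was at 582, 558, 534, 701 and 790 CPM in Rbp4-Aldh1a1 cells, against 178, 166, 260, 215 and 243 CPM in the others (log2 fold change 1.59 ± 0.16, edgeR adjusted p 8.3e-06). Twsg1, which encodes a BMP-binding protein that can act either way on the signal, had a log2 fold change of 1.21. The rise of Fst, which encodes the activin-binding protein follistatin, rested on collection 1A: it was at 150, 37.2, 20, 0 and 41.6 CPM in Rbp4-Aldh1a1 cells, and it did not pass without that collection, with DESeq2 or without cells of other classes. Of 7 BMP target genes, Id3 rose, with a log2 fold change of 0.45, and the other 6 did not pass. Id3 did not pass with DESeq2 (adjusted p 0.059), which called none of the 7, or without collection 1B.

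**Figure D3:**
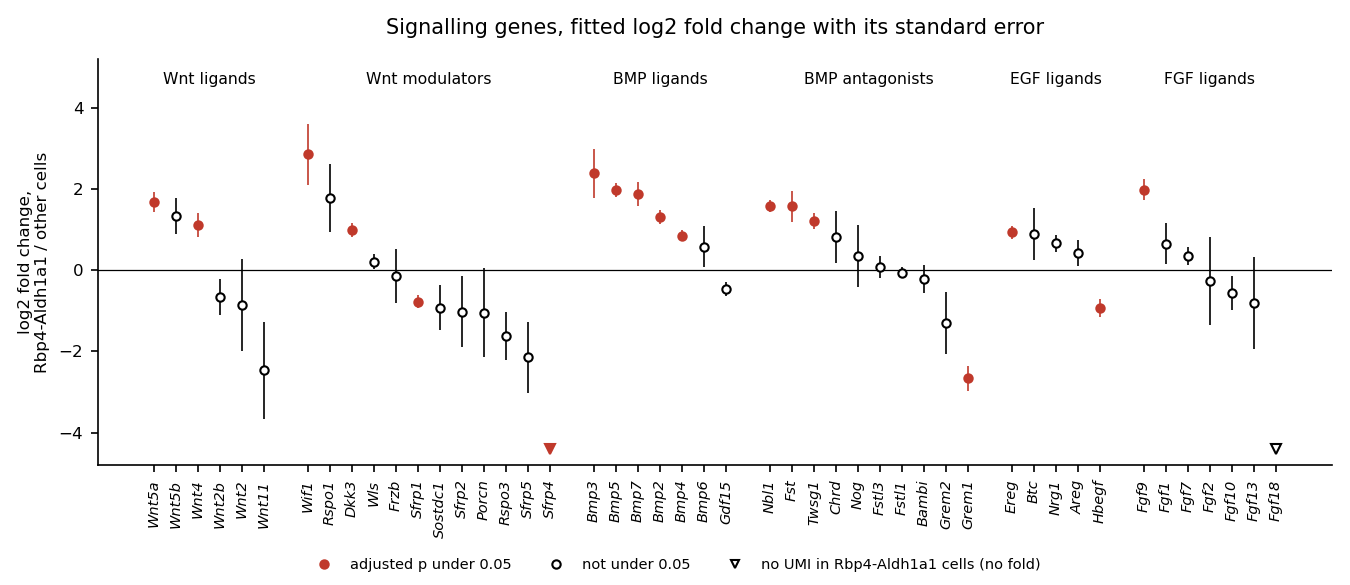
Fitted log2 fold change of Rbp4-Aldh1a1 cells over the other collagen-gated cells (y axis, with its standard error) for every tested gene of 6 signalling lists. Red marks an adjusted p under 0.05, and triangles mark genes with no UMI in the Rbp4-Aldh1a1 cells, which have no fold; 5 BMP ligands are above 0 and called, and Grem1 is the lowest of the BMP antagonists.

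Of 19 Wnt ligand genes, 6 were tested and 2 were higher. Wnt5a, a ligand that acts mainly without β-catenin, was at 72.0, 149, 120, 130 and 233 CPM in the Rbp4-Aldh1a1 cells of the 5 collections, against 39.0, 38.5, 41.6, 37.0 and 48.4 CPM in the others. All 5 values were above those of the others, with a log2 fold change of 1.68 ± 0.25 (edgeR adjusted p 0.00054). Without cells of other classes, the filter chosen after seeing the data, its log2 fold change was 0.97 and it did not pass (edgeR adjusted p 0.12). Without cells with 2 markers of any other class, smooth muscle included, its log2 fold change was 0.95 and it passed (edgeR adjusted p 0.0089). Wnt4 averaged 81.4 ± 34.4 CPM in Rbp4-Aldh1a1 cells and 35.9 ± 2.50 CPM in the others (SD, n = 2 each), with a log2 fold change of 1.12 (edgeR adjusted p 0.031), and it did not pass with DESeq2 or without collections 1B or 2B. Among 19 Wnt modulators 12 were tested. The inhibitors Wif1, with 11 UMIs, and Dkk3 rose, and Sfrp1 and Sfrp4, which bind Wnt ligands, were lower. Dkk3 averaged 372 ± 41.5 CPM in Rbp4-Aldh1a1 cells and 185 ± 32.1 CPM in the others. Wif1 did not pass without collection 1B, and neither passed without cells of other classes. Sfrp4 had no UMI in the Rbp4-Aldh1a1 cells and 15.8 CPM in the others. That is at least 3.46-fold lower against a floor of 3 UMIs over the set, if UMIs spread evenly over cells.

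Fgf9, a fibroblast growth factor that acts on mesenchymal cells, was the FGF ligand that rose among 7 tested of 10. It was at 102, 186, 86.8, 173 and 74.9 CPM in the Rbp4-Aldh1a1 cells of the 5 collections, against 38.5, 20.8, 36.1, 25.3 and 29.5 CPM in the others (log2 fold change 1.99 ± 0.26, edgeR adjusted p 0.00014). Of 5 EGF-family ligands tested, Ereg was higher, with means of 483 and 251 CPM (log2 fold change 0.94), and Hbegf was lower, with means of 126 and 244 CPM (log2 fold change -0.93), each given for Rbp4-Aldh1a1 cells and then the others. Without cells of other classes neither passed (adjusted p 0.58 and 0.64). Nrg1 averaged 165 ± 65.2 CPM in Rbp4-Aldh1a1 cells and 101 ± 26.2 CPM in the others and did not pass (edgeR adjusted p 0.074). None of 9 Notch genes tested passed in either direction.

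Beyond Rbp4 and Aldh1a1 the retinoid genes did not move as a group. Of 46 genes of retinol transport, synthesis, breakdown and response, 22 were tested, 2 were higher and 2 lower. Rdh10, the retinol dehydrogenase that makes retinaldehyde, was at 372, 353, 334, 294 and 300 CPM in the Rbp4-Aldh1a1 cells of the 5 collections, against 199, 199, 177, 162 and 179 CPM in the others. Its ranges did not overlap and its log2 fold change was 0.85 ± 0.17 (edgeR adjusted p 0.0058), but without cells of other classes it was 0.50 and did not pass (adjusted p 0.11). Rarres2, a retinoid-responsive gene that encodes chemerin, had a log2 fold change of 0.77, and it too did not pass there (adjusted p 0.10). Fabp5, which can carry retinoic acid, was one of those that were lower and averaged 22.1 ± 5.45 CPM in Rbp4-Aldh1a1 cells and 87.0 ± 26.5 CPM in the others (log2 fold change -1.98, edgeR adjusted p 0.0014), and it did not pass without cells of other classes (adjusted p 0.35). The related dehydrogenases Aldh1a2 and Aldh1a3 averaged 19.0 and 30.9 CPM in Rbp4-Aldh1a1 cells, against 12.3 and 26.9 CPM in the others, and did not pass. Stra6, the RBP4 receptor, had no UMI in the Rbp4-Aldh1a1 cells and 0.539 CPM in the others. Crabp1 had 15 UMIs, all in 1 cell of collection 1A, and was too sparse to test.

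Of 30 basement membrane genes 18 were tested and 4 were higher: Col4a5, Col4a6 and the laminin chain genes Lamb1 and Lama4. Col4a5, which encodes the α5 chain of collagen IV, was at 240, 232, 227, 251 and 166 CPM in the Rbp4-Aldh1a1 cells of the 5 collections, against 46.2, 35.8, 57.3, 42.5 and 42.6 CPM in the others (log2 fold change 2.34 ± 0.21, edgeR adjusted p 3.7e-06). Col4a6, its neighbour in the same triple helix, averaged 47.0 ± 25.2 CPM in Rbp4-Aldh1a1 cells and 11.7 ± 0.463 CPM in the others, with overlapping ranges, and it did not pass with DESeq2 or without cells of other classes. Emid1, which encodes a secreted protein with an EMI domain, was at 300, 400, 301, 372 and 374 CPM in Rbp4-Aldh1a1 cells, against 54.4, 67.9, 86.3, 79.5 and 98.4 CPM in the others (log2 fold change 2.2 ± 0.2, edgeR adjusted p 3.5e-06). Both Col4a5 and Emid1 were separated from the others in every collection. Of 32 interstitial matrix genes 31 were tested, 7 were higher, among them Adamdec1, a metalloprotease of lamina propria fibroblasts, and the matrix protein genes Fn1 and Postn, and 6 were lower, among them Col14a1 and Mfap4. Without cells of other classes the count was 1 higher and 11 lower. Adamdec1 averaged 4011 ± 229 CPM in Rbp4-Aldh1a1 cells and 1975 ± 389 CPM in the others (log2 fold change 1.03), and it was the 1 that stayed higher.

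Genes of adventitial fibroblasts, which lie around vessels and in the submucosa, were lower than in the other collagen-gated cells as a whole. Against F3-Plau cells they moved in both directions, as given below. All 16 genes of the list were tested, 11 were lower and none higher, against the background of 3.72% of genes lower; DESeq2 called 8 lower, and edgeR without cells of other classes 12 of 15. Has1, a hyaluronan synthase, was at 12, 46.5, 20, 8.66 and 91.5 CPM in the Rbp4-Aldh1a1 cells of the 5 collections, against 382, 289, 381, 282 and 349 CPM in the others (log2 fold change -3.36 ± 0.26, edgeR adjusted p 4.7e-07). Pi16 had 8 UMIs in the Rbp4-Aldh1a1 cells and a log2 fold change of -2.91, and C3, the third complement component, had 17 UMIs and a log2 fold change of -2.76. The transcription factor Ebf1 averaged 27.5 ± 23.5 CPM in Rbp4-Aldh1a1 cells and 137 ± 10.8 CPM in the others (log2 fold change -2.21). Of 34 transcription factor genes tested, Sox6, Tbx3 and Tcf4 were higher and 4 were lower, among them Ebf1, Foxp1 and Zeb2.

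Of 28 neural guidance and neurotrophic genes, 23 were tested. By edgeR 5 were higher (Edn3, Ngfr, Ednrb, Gdnf and Ednra) and 5 were lower (Nts, Sema3d, Slit3, Edn1 and Sema3c), DESeq2 called 1 higher and none lower, and without cells of other classes 3 were higher and 2 lower of 19. Ednrb, endothelin receptor B, was at 300, 651, 414, 268 and 191 CPM in the Rbp4-Aldh1a1 cells of the 5 collections, against 100, 143, 116, 99.4 and 134 CPM in the others (log2 fold change 1.60 ± 0.19, edgeR adjusted p 5.4e-05). Ednra averaged 111 and 45.6 CPM and Edn3, on 13 UMIs, 21.6 and 2.53 CPM in the same order, while Edn1 was lower, at 22.1 and 65.6 CPM. Ednra and Edn1 did not pass with DESeq2 or without cells of other classes, and Edn3 did not pass without collection 1B. Procr was at 396, 567, 468, 407 and 466 CPM in Rbp4-Aldh1a1 cells, against 118, 126, 120, 116 and 146 CPM in the others (log2 fold change 1.86 ± 0.17, edgeR adjusted p 3.7e-06). Gdnf, a neurotrophic factor for enteric neurons, averaged 92.6 ± 12.2 CPM in Rbp4-Aldh1a1 cells and 37.7 ± 1.85 CPM in the others (log2 fold change 1.30). Gdnf did not pass with DESeq2. Agt, which encodes angiotensinogen, averaged 211 ± 9.69 and 80.8 ± 25.9 CPM in the same order.

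Other genes that the naming rule picked were the sialyltransferase gene St6galnac2, the calcium store gene Casq2, the GLP-2 receptor gene Glp2r, the RAS-like gene Rerg, the aldo-keto reductase gene Akr1b8, Aard, Fibin and Pnmal2. Their log2 fold changes lay between 1.77 for Akr1b8 and 2.31 for St6galnac2, on 23 UMIs for Glp2r to 61 for Rerg in the Rbp4-Aldh1a1 cells. St6galnac2 was at 48.0, 55.8, 60.1, 17.3 and 25.0 CPM in the Rbp4-Aldh1a1 cells of the 5 collections, against 8.72, 9.08, 7.84, 6.32 and 10.7 CPM in the others. Casq2 was at 90, 27.9, 46.8, 113 and 108 CPM, against 12.3, 15, 23.5, 17.2 and 22.1 CPM. Both were separated from the others, while the ranges of Rerg, Fibin and Pnmal2 overlapped. Aard, Fibin, Glp2r and Pnmal2 did not pass with DESeq2, and Glp2r and Pnmal2 did not pass without cells of other classes. Exons of Glp2r overlap those of Gas7 on the opposite strand.

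**Figure D4:**
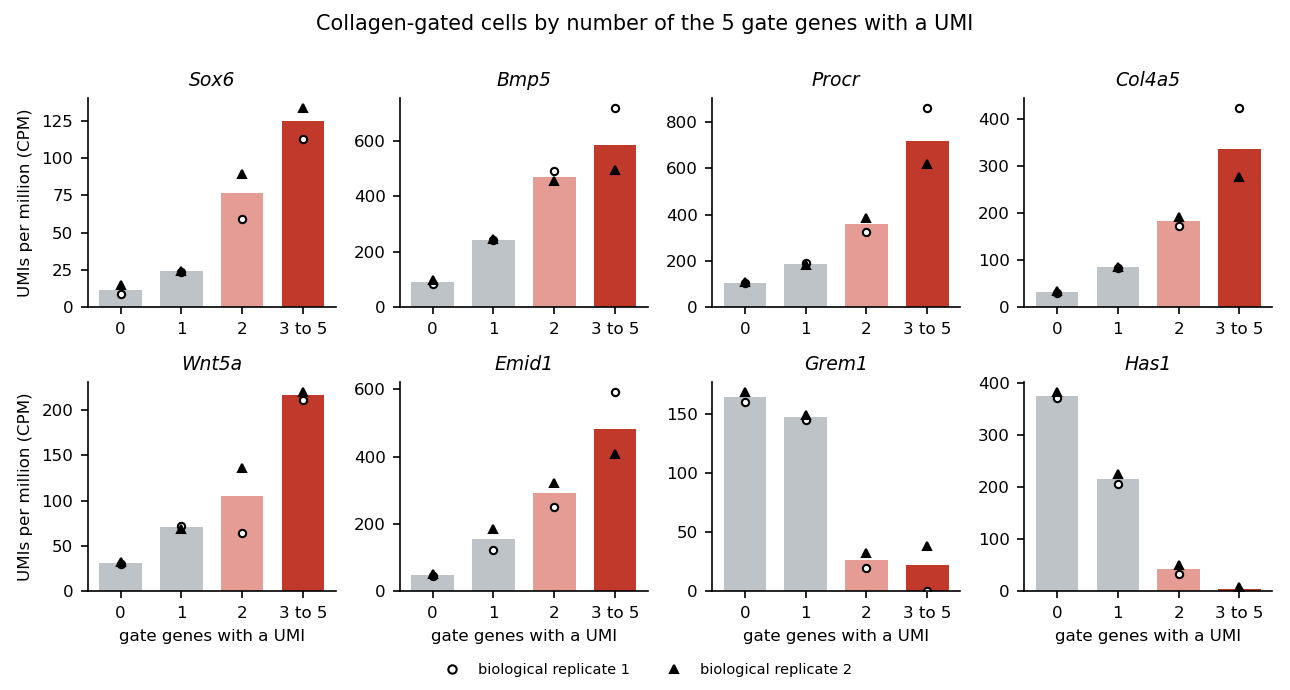
Level of 8 genes outside the gate (y axis, CPM) in collagen-gated cells with 0, 1, 2 and 3 to 5 gate genes (3171, 944, 247 and 74 cells); bars are all cells together and points the 2 biological replicates. Sox6, Bmp5, Procr, Col4a5, Wnt5a and Emid1 are higher with more gate genes, and Grem1 and Has1 are low from 2 gate genes on.

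Levels across the gate's threshold are given as a description. Sox6 was at 11.9, 24.3, 76.5 and 125 CPM in cells with 0, 1, 2 and 3 to 5 gate genes, Bmp5 at 91.1, 244, 472 and 585 CPM, and Wnt5a at 31.1, 70.5, 105 and 216 CPM. Foxl1 was at 4.78, 9.59, 18.6 and 34.1 CPM. For these genes, cells just outside the threshold thus lay between those with no gate gene and those inside. Grem1 was at 164, 147, 26.9 and 22.7 CPM, so here the cells with 1 gate gene were close to those with none. Acta2 was at 228, 356, 631 and 432 CPM. The groups also differed in the leukocyte gene Ptprc, at 127, 59.2, 10.3 and 17.1 CPM. Their median depth was 1354, 1552, 1624 and 1757.5 UMIs. The part of cell types and depth in these levels was not tested.

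Contractile genes were higher. Their median share of a cell's UMIs was 0.412% in Rbp4-Aldh1a1 cells and 0.180% in the others. No contractile UMI was found in 1.25% of Rbp4-Aldh1a1 cells and 12.9% of the others. The 32 Rbp4-Aldh1a1 cells with the most contractile UMIs held 51.4% of them, and the top 412 of the others 58.0%. Of 16 contractile genes tested, 10 rose and none fell, DESeq2 called 7, and edgeR without cells of other classes, a filter that keeps cells with smooth muscle markers, 3 (Cald1, Mylk and Actn1). Leaving out cells with 2 markers of any other class, smooth muscle included, gave 8 higher of 15 tested. Acta2 averaged 547 ± 258 CPM in Rbp4-Aldh1a1 cells and 258 ± 56.9 CPM in the others (SD, n = 2 each), a log2 fold change of 1.07; the ranges overlapped, and it did not pass with DESeq2 or without collections 1A or 2B. Of the 321 cells, 43 (13.4%) had at least 2 of 8 smooth muscle markers, against 433 of 4115 others (10.5%), and the summed level of the 8 markers was 400 to 1238 CPM in the Rbp4-Aldh1a1 cells of the collections and 338 to 756 CPM in the others. With those cells left out of both sets, Cald1 averaged 1549 ± 109 CPM in Rbp4-Aldh1a1 cells and 746 ± 17.2 CPM in the others, Mylk, myosin light chain kinase, 261 ± 31.0 and 89.0 ± 17.3 CPM, and Acta2 238 ± 109 and 86.3 ± 2.64 CPM (SD, n = 2 each).

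**Figure D5:**
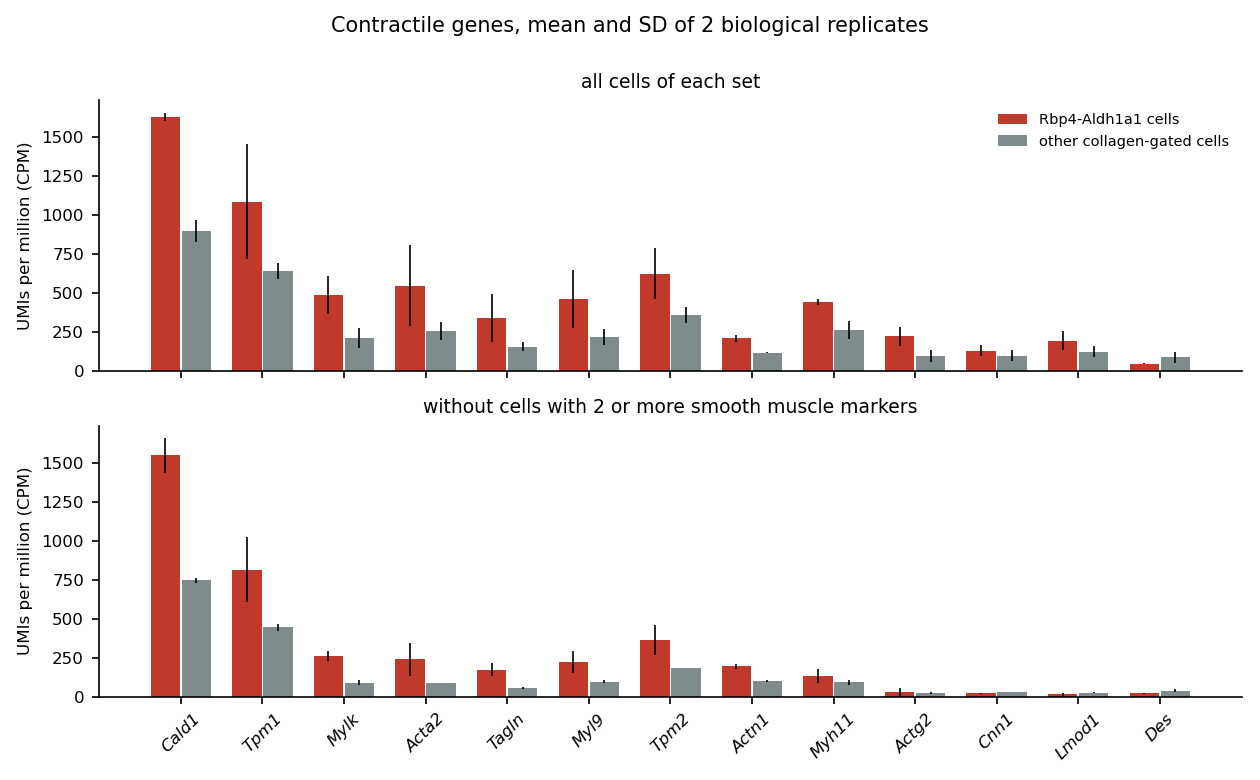
Mean level of 13 contractile genes (y axis, CPM; bars of SD over 2 biological replicates) in Rbp4-Aldh1a1 cells (red) and other collagen-gated cells (grey), for all cells (top) and without cells with 2 or more smooth muscle markers (bottom). Cald1, Tpm1, Mylk, Acta2 and Tagln are higher in Rbp4-Aldh1a1 cells in both panels; Actg2, Cnn1, Lmod1 and Des are among the markers by which cells were left out of the lower panel.

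Of 25 chemokine and cytokine genes tested, 9 were lower, 2 were higher and 14 did not pass, and DESeq2 called 6 lower and 1 higher. Il6 was at 30, 18.6, 20, 0 and 25.0 CPM in the Rbp4-Aldh1a1 cells of the 5 collections, against 109, 101, 101, 97.5 and 110 CPM in the others (log2 fold change -2.39 ± 0.34, edgeR adjusted p 0.00036). Ccl2, a monocyte chemokine, averaged 83.3 ± 37.0 CPM in Rbp4-Aldh1a1 cells and 265 ± 16.1 CPM in the others (log2 fold change -1.74), and Ccl11, which attracts eosinophils, 16.4 ± 2.53 and 74.0 ± 13.6 CPM. These 3 also passed without cells of other classes, where the count was 7 lower and none higher of 22. Cxcl12 and Cxcl14 were the 2 that were higher, and neither passed there. Of 12 prostanoid genes tested, the cyclooxygenase genes Ptgs1 and Ptgs2 were higher, with means of 198 and 724 CPM in Rbp4-Aldh1a1 cells and 90.1 and 399 CPM in the others, and Hpgds, the prostaglandin D synthase of immune cells, was lower. Without cells of other classes, Ptgs2 was the 1 of these that passed.

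The genes with the largest falls had no UMI in any of the 321 cells. None of these falls was called by DESeq2, which gave Muc2 an adjusted p of 0.91 and the other 9 none. By the naming rule they were Muc2, the goblet cell mucin gene, Il22ra2, Hcls1, Mmp12, P2ry10, Sele, Ighm, Cd69, Ikzf3 and Klrb1b, most of them genes of leukocytes, and Sele a gene of activated endothelium. Against a floor of 3 UMIs over the set, and if UMIs spread evenly over cells, they were at least 4.47-fold lower for Klrb1b to at least 8.08-fold lower for Muc2. Muc2 was not spread evenly: it was at 456 CPM in the other collagen-gated cells of cluster 4 and 5.63 CPM in those of cluster 1. The genes were picked by their level in the others, so these folds are a description. The 9 immune markers summed to 121 to 242 CPM in the Rbp4-Aldh1a1 cells of the collections and 2301 to 3648 CPM in the others, and 6 of 7 tested were lower. Of 6 lymphatic endothelial markers tested 3 were lower, as were 3 of 7 blood endothelial markers. Blood endothelial markers summed to 95.3 to 1837 CPM in the Rbp4-Aldh1a1 cells of the collections, against 883 to 1478 CPM in the others. Leaving out cells of other classes gave 94 higher and 125 lower of 9135 genes tested, 75 of the 125 among the 414; the part of these cell types in the falls was not tested.

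Neuronal genes were higher through 5 cells. Snap25, Elavl4 and Uchl1 were called higher, with 38, 36 and 51 UMIs in the Rbp4-Aldh1a1 cells, but 37, 35 and 49 of these lay in 5 cells with at least 2 neuron markers, and without collection 1A none of the 3 passed. In the other 316 cells they were at 1.59, 1.59 and 3.18 CPM, against 10.4, 16.3 and 23.3 CPM in the other collagen-gated cells. Neuron markers summed to 0 to 828 CPM over the collections in the Rbp4-Aldh1a1 cells and 39.7 to 123 CPM in the others. No doublets had been called.

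Of the 612 F3-Plau cells, 246 fell in cluster 2, 101 in cluster 4 and 64 in cluster 5, which was led by endothelial genes such as Selp, Flt1 and Plvap. Of the 321 Rbp4-Aldh1a1 cells, 97 (30.2%) also passed the F3-Plau gate and were counted as Rbp4-Aldh1a1 cells. Of 7138 genes tested, 514 (7.2%) were higher in the Rbp4-Aldh1a1 cells and 771 (10.8%) were lower by edgeR. DESeq2 called 61 (0.855%) and 115 (1.61%), and the fit without the replicate block 232 (3.25%) and 434 (6.08%). The 8 lower genes that the naming rule picked were Ccl21a, Lyve1, Mmrn1 and Reln, which mark lymphatic endothelium, Selp, a gene of venous endothelium, and Mmp12, Samsn1 and H2-M2, which are expressed in leukocytes. Without cells of other classes, 185 of 4666 genes tested (3.96%) were higher and 351 (7.52%) lower, 228 of the 351 among the 771. The part of other cell types in the falls was not tested. Lymphatic markers summed to 294 to 372 CPM in the Rbp4-Aldh1a1 cells of the collections and 780 to 2974 CPM in the F3-Plau cells.

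Set against the F3-Plau cells, the Rbp4-Aldh1a1 cells had 4 of 7 BMP ligands tested higher and 1, Gdf15, lower (log2 fold change -1.01). DESeq2 called 2 of these higher and 1 lower, and without cells of other classes 1 was higher and 2 were lower of 5, Gdf15 and Bmp2 (log2 fold change -0.54, edgeR adjusted p 0.0063). Of 15 contractile genes tested 12 were higher, against 7 with DESeq2 and 5 without cells of other classes. Of 14 adventitial genes tested, 3 were higher (Clec3b, Ly6a and Mfap5) and 3 lower (Has1, Cd81 and Gfpt2). Grem1 did not pass (log2 fold change -0.77, edgeR adjusted p 0.23), but it was lower without cells of other classes (-1.61, edgeR adjusted p 0.0095). All 4 EGF-family ligands tested were lower by edgeR, 2 of them by DESeq2, and 3 without cells of other classes. Areg, which encodes amphiregulin, and Ereg did not pass with DESeq2 (adjusted p 0.53 and 0.34) or without the replicate block (0.25 and 0.12), and each was lost in 4 of the 5 fits that left out 1 collection: Areg without 1B, 2A, 2B or 2C, and Ereg without 1A, 1B, 2B or 2C. Nrg1 was at 165 ± 65.2 CPM in Rbp4-Aldh1a1 cells and 395 ± 130 CPM in F3-Plau cells (SD, n = 2 each), a log2 fold change of -1.30, and of -2.11 without cells of other classes. Ereg averaged 483 and 679 CPM, with log2 fold changes of -0.49 and -1.43 in the same fits. Bmp4 averaged 915 ± 97.0 CPM in Rbp4-Aldh1a1 cells and 394 ± 101 CPM in F3-Plau cells (log2 fold change 1.20, edgeR adjusted p 1.1e-10), and it stayed higher without cells of other classes. Without the replicate block the edgeR adjusted p of Bmp4 was 0.0081. Of 13 telocyte genes tested, 7 were higher by edgeR, 1 by DESeq2 and none of 11 without cells of other classes. Bmp5, Bmp7, Wnt5a, Fgf9 and Col4a5 were also called higher than in F3-Plau cells, but without cells of other classes none of these 5 passed, with log2 fold changes of -0.20 for Wnt5a to 0.48 for Col4a5. Sox6 averaged 87.1 ± 20 CPM in Rbp4-Aldh1a1 cells and 27.9 ± 5.62 CPM in F3-Plau cells (log2 fold change 1.60, edgeR adjusted p 0.00026), and 0.98 with an adjusted p of 0.053 there.

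Cxcl12, a chemokine for leukocytes and progenitor cells, was at 786, 679, 494, 719 and 890 CPM in the Rbp4-Aldh1a1 cells of the 5 collections and averaged 253 ± 48.1 CPM in F3-Plau cells (log2 fold change 1.47, edgeR adjusted p 9.2e-13), and it stayed higher without cells of other classes. Its edgeR adjusted p was 0.0023 without the replicate block, so the size of the p-value depends on the fit. Cxcl1 and Cxcl10 were lower, with means of 1152 and 268 CPM in Rbp4-Aldh1a1 cells and 2321 and 608 CPM in F3-Plau cells. Ptgs2 was also lower than in F3-Plau cells, at 724 ± 282 and 1162 ± 229 CPM, although it was higher than in the other collagen-gated cells as a whole. The 8 genes with the largest rises by the naming rule were Pnmal2, Dhrs4, a retinol dehydrogenase gene, Gria3, a glutamate receptor gene, Fibin, Pygl, Orai3, Ccdc28b and Ptgis, the prostacyclin synthase gene. Gria3 averaged 69.2 ± 20.8 CPM in Rbp4-Aldh1a1 cells and 13.1 ± 7.81 CPM in F3-Plau cells, and Ptgis 62.7 ± 4.23 and 15.6 ± 4.25 CPM. Their log2 fold changes lay between 1.95 for Ptgis and 2.76 for Pnmal2, on 22 to 44 UMIs in the Rbp4-Aldh1a1 cells.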

How the data were processed

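The deposited files are 5 tables of UMI counts per gene and barcode, 1 for each Drop-seq collection. Per the submitters' processing notes, the authors used STAR 2.6 and mm10; the counting program, annotation and choice of barcodes are not given in the sources used here. The cells, gene lists and comparisons were chosen with earlier results of these data known. Cells were gated as described, the UMIs of each set were added up within a biological replicate, and these sums were tested in edgeR 4.0.16 (filterByExpr, TMM, quasi-likelihood F test, replicate block, Benjamini-Hochberg) in R 4.3.3, with gate genes left out of the adjustment. The block pairs sets of cells from the same suspension. The test was checked on simulated data, and DESeq2 1.42.0 was an alternative. CPM are UMIs per 1000000 UMIs of a set, and SD is over the 2 replicates. Clusters used scanpy 1.11.5 with 2000 variable genes, 30 components, 15 neighbours and resolution 0.5. No doublet caller was run and no ambient RNA was subtracted. The genes named are the gate genes and Sox6, the 15 largest rises and 10 largest falls against the other cells, 8 of each against F3-Plau cells, and members of the lists. All 501 genes described were matched by symbol to GENCODE M21, where exons of 142 overlap another gene. A few genes of the lists are counted but not reported here by name.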

Additional observations from a re-analysis of the deposited data

Results flagged for a closer look

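Among the genes the naming rules picked, 3 had 1 collection far from the other 4 in the Rbp4-Aldh1a1 cells, by the gap to the nearest value as a share of the range; chance marks about 1 group in 20. Col4a5 was low in collection 2C, at 166 CPM. Glp2r was high in collection 1B, at 74.4 CPM. Samsn1 was at 8.32 CPM in collection 2C, which is 1 UMI, and had none in the other 4. Outside the cells analysed, 21 barcodes that failed a cell filter passed both gates, 5 of them with under 300 genes and 16 with over 10% mitochondrial UMIs, and no control samples exist to set them against.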

How the results depend on the processing

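No gene picked by the naming rules changed direction under any setting tried. The rules had picked genes with large fold changes and the same direction in all 5 collections, so a reversal was unlikely from the start. Of 600 possible values 42 could not be computed, and of the 558 recomputed values of the 25 genes named against the other collagen-gated cells, 521 kept their call and 37 no longer passed; of 302 values of the 16 genes named against F3-Plau cells, 290 kept it and 12 did not, and 66 of 368 could not be computed. DESeq2 gave no adjusted p for 9 of the 10 falls against the other cells or for any of the 8 rises against F3-Plau cells. Requiring at least 3 of the 5 gate genes, which leaves fewer cells, lost 18 of these calls, the gate without Tmem158 7 and the gate without Aldh1a1 6. Counts are given as higher and lower. Against the other cells (254 and 414), DESeq2 gave 94 and 129, at least 3 gate genes 69 and 199, the gate without Aldh1a1 136 and 250, at least 3 collagen-gate genes 126 and 190, leaving out cells with 2 markers of another class 168 and 236, leaving out endothelial, immune, glial, neuronal and epithelial marker cells 94 and 125, and others with no gate gene UMI 474 and 775. The gate without Bean1 gave 267 lower, no gene filter 680 lower and no top 5% of cells by UMIs 391 higher. Leaving out 1 collection gave 174 to 506 higher and 238 to 809 lower, with the extremes without 2B and 2A. Against F3-Plau cells (514 and 771), DESeq2 gave 61 and 115, no replicate block 232 and 434, at least 3 gate genes 30 and 59, the gate without Rbp4 246 and 388, without Aldh1a1 270 and 480, without Tmem158 102 and 212, without Bean1 294 and 505, at least 3 collagen-gate genes 202 and 378, at most 5% mitochondrial UMIs 257 and 360, no cells with 2 markers of another class 206 and 376, and no endothelial, immune, glial, neuronal or epithelial marker cells 185 and 351. No gene filter gave 289 and 810, at least 1000 UMIs 321 and 542, no top 5% 329 and 556, and sums per collection 377 and 404. Leaving out 1 collection gave 171 to 588 higher and 301 to 783 lower; without 1A it gave 341 and 452, without 1B 296 and 444, without 2B 181 and 321, and without 2C 171 and 301. The cause was not tested. Without the replicate block the counts against the other cells were 274 and 453. The pairing comes from the shared suspension. The share of 7.18% was 1.66% with at least 3 gate genes, 4.19% without Rbp4, 4.46% without Aldh1a1, 4.87% without Tmem158, 5.11% without Enho and 3.53% after thinning. With 1 residual degree of freedom, counts of calls are less firm than the levels.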
